A study of Mus musculus with 2 samples.

Results

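The hedgehog pathway genes described here are the ligand genes Shh and Ihh, the receptor gene Ptch1, the inhibitor gene Hhip, the transducer gene Smo and the transcription factor genes Gli1, Gli2 and Gli3. They are 8 of the 27998 genes in the deposited count matrices, taken by symbol, and each symbol occurs once. The matrices come from mouse lungs at postnatal day 10, with 1 library from a mutant, titled Nkx2-1;Aqp5, and 1 library from a control, titled Nkx2-1 alone. Each library holds epithelial, immune, endothelial and mesenchymal cells purified by FACS, and the labels give no allele, no Cre driver and no number of animals for either. The series asks what Nkx2-1 does in AT1 cells, the thin alveolar type 1 cells across which gas diffuses. Nkx2-1 is the homeodomain transcription factor that marks lung epithelial identity, and the Aqp5 product is an aquaporin found in AT1 cells.

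A hedgehog ligand binds Ptch1, which otherwise holds the membrane protein Smo in check. Released Smo acts through the primary cilium on the Gli factors, of which Gli1 is an activator, Gli2 mainly an activator and Gli3 mainly a repressor. Gli1, Ptch1 and Hhip are themselves known to be switched on by the pathway, and Hhip binds ligand outside the cell. In the lung, Shh is known as a signal from epithelium to mesenchyme, while Ihh is known from cartilage and gut.

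Counts were of unique molecular identifiers (UMIs), 47271104 over 4551 barcodes in the mutant and 29862980 over 4461 barcodes in the control. The median barcode had 8305 UMIs in the mutant and 5943 UMIs in the control, and 27 barcode sequences occurred in both libraries. After filtering, 4154 mutant and 3924 control cells were used. Nkx2-1 itself had 13.8 counts per 1000000 (CPM) in the mutant and 485 CPM in the control AT1 compartment. The compartment is the epithelium outside AT2-like, club-like and ciliated-like clusters. It is thus set by what it is not, and the AT1 origin of its mutant cells is assumed and was not tested. It held 2233 mutant and 551 control cells, beside 213 mutant and 1261 control AT2-like cells. The 3' tags counted for Nkx2-1 may lie outside its altered part, so its CPM alone does not check the label. With 1 library per group there is no replicate check and no test, and values describe these 2 libraries. Intervals are exact at 95% (Poisson for CPM, Clopper-Pearson for shares, conditional binomial for ratios of mutant over control) and cover counting error only. A gene is called measured in a class with at least 20 UMIs over both libraries, and past 2-fold is the size used to count differences. Cells were clustered without the hedgehog genes.

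On mm10, Shh lies on the minus strand at chr5:28456815-28467256, Ihh on the minus strand at chr1:74945315-74951672 and Ptch1 on the minus strand at chr13:63508328-63573598. Hhip lies on the minus strand at chr8:79965851-80058006, and Smo on the plus strand at chr6:29735503-29761365. Gli1 lies on the minus strand at chr10:127329882-127341974, Gli2 on the minus strand at chr1:118834132-119053619 and Gli3 on the plus strand at chr13:15463235-15730026. Each of the 8 identifiers in the matrices matched the GENCODE annotation of that build.

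The bases upstream of Ihh are shown because Ihh is the ligand gene that had UMIs in the mutant compartment and none in the control compartment. The window is the 250 bases before the RefSeq start on GRCm38.p6, at chr1:74951673-74951922 on the minus strand.
Ihh: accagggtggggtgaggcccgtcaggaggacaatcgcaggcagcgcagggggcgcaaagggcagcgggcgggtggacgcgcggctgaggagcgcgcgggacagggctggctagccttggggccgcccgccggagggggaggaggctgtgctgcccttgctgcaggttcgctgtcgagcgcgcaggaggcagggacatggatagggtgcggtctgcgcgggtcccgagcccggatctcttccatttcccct
The window was searched on both strands for the Gli motif GACCACCCA and for the NK2 homeodomain core CAAGTG, which do not overlap each other in their letters. Neither occurs in it, which says only that these letters are not in this window. Of 32851 upstream windows of the same length, 0.225% held the Gli motif and 11.6% the NK2 core, and of the 6 hedgehog genes with a window, 0 held either.

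In the AT1 compartment Shh was lower and Ihh higher in the mutant, and these 2 ligand genes had the largest differences of the hedgehog genes measured there. Shh had 162 UMIs in the 2233 mutant cells, or 5.22 CPM (4.45 to 6.09), against 515 UMIs in the 551 control cells, or 137 CPM (126 to 150). The ratio of mutant over control was 0.0380 (0.0317 to 0.0455). Ihh had 1173 UMIs in the mutant compartment, or 37.8 CPM (35.7 to 40.0), against 0 UMIs in the control compartment, where a count of 0 allows up to 0.80 CPM. Taken against that floor of 3 counts over the compartment, Ihh was at least 47.3-fold higher in the mutant, and the lower limit of the exact interval of the ratio was 38.4. Median depth was 12318 UMIs in mutant and 6452 UMIs in control compartment cells.

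With every cell thinned to 1500 UMIs, and none too shallow for it, 24 mutant compartment cells (1.07%, 0.690 to 1.60) and 109 control compartment cells (19.8%, 16.5 to 23.4) had a Shh UMI. Before thinning the shares were 5.91% and 55.7%. Endothelial cells, which should lack Shh, gave 0.210% in the mutant and 0.170% in the control after thinning, with median depths of 5255 and 4391 UMIs. They include a cluster of 6 mutant and 10 control cells led by epithelial genes, among them Slc34a2 and Ager. The part of that cluster in these shares was not tested. An Ihh UMI was found in 106 thinned mutant compartment cells (4.75%, 3.90 to 5.71) and in 0 of 551 control compartment cells, which allows up to 0.544%. Before thinning these were 28.0% and 0 of 551. No endothelial cell of either library had an Ihh UMI, which allows up to 0.629% in the mutant and 0.509% in the control. Over all cells used, 98.0% of the 205 mutant and 98.8% of the 744 control Shh UMIs lay in epithelium. Ihh had 1179 UMIs in mutant cells, of which 99.8% were epithelial, against 5 UMIs in control cells, of which 80.0% were epithelial.

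Outside the compartment the ligand genes differed less. In AT2-like cells, which make surfactant, Shh had 21 UMIs (12.6 CPM, 7.78 to 19.2) in the mutant and 176 UMIs (18.1 CPM, 15.6 to 21) in the control, a ratio of 0.693 (0.418 to 1.09). Most mutant AT2-like cells lay in cluster 8 (181 mutant and 80 control cells), and most control ones in clusters 0 and 1. Within cluster 8 Shh had 13.2 CPM in the mutant and 7.74 CPM in the control, a ratio of 1.71 (0.656 to 5.23). In ciliated-like cells it had 39.5 CPM in the mutant and 40.5 CPM in the control, and in club-like cells 22.7 CPM in the mutant and 17.0 CPM in the control. These airway values rest on 8 to 30 UMIs per class and library and their intervals overlap. Ihh had 2 UMIs in mutant and 1 UMI in control AT2-like cells, and 1 UMI in mutant and 3 UMIs in control ciliated-like cells.

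**Figure D1:**
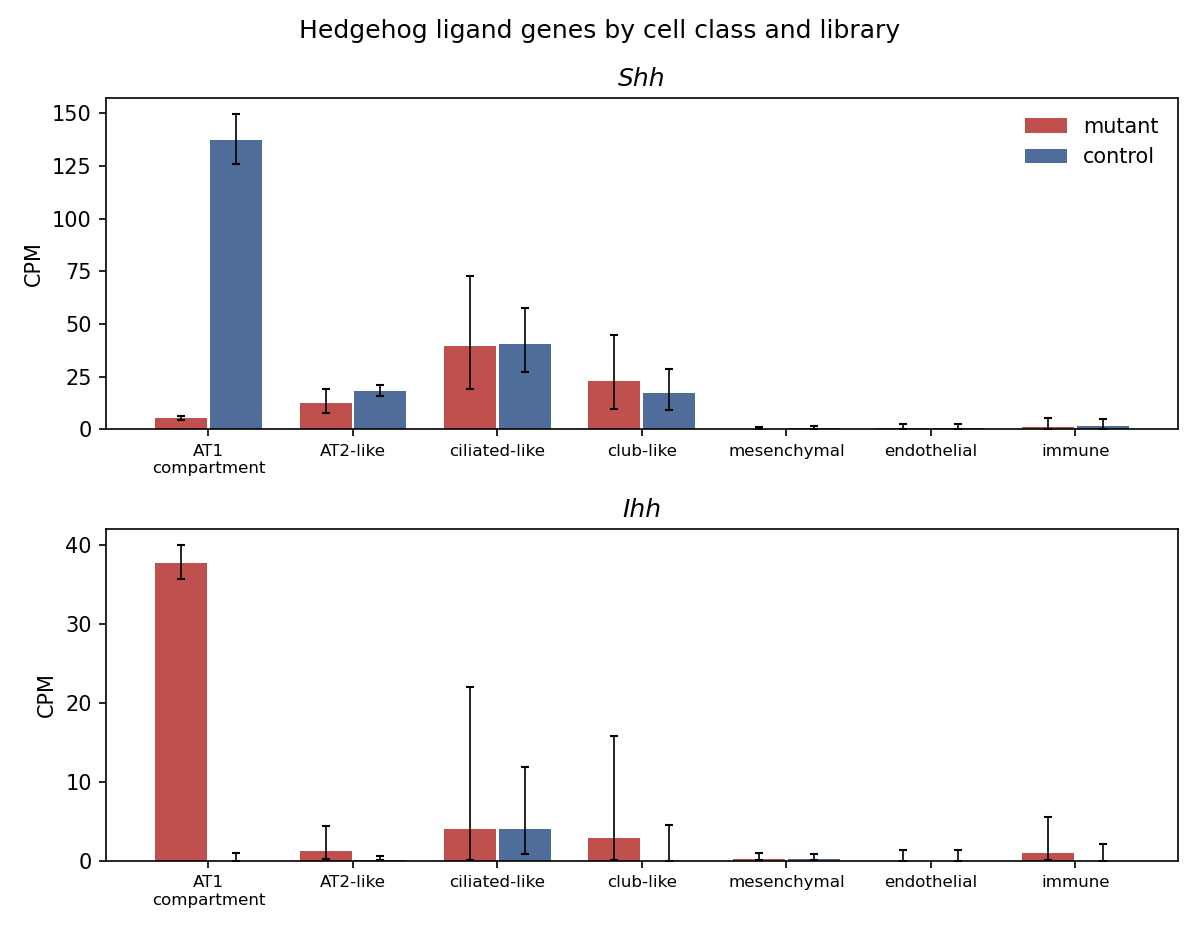
Levels of Shh and Ihh in CPM by cell class, mutant left of control, with exact 95% Poisson intervals that cover counting error only (1 library per group). In the AT1 compartment Shh stood at 5.22 CPM in the mutant against 137 CPM in the control, and Ihh at 37.8 CPM in the mutant against 0 UMIs in the control.

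Within the mutant compartment, the levels of Shh and Ihh differed between clusters, and the cluster with the most Shh UMIs had no Ihh UMI. It was cluster 10, an AT1-like cluster of 175 mutant and 43 control cells, which had Shh at 50.8 CPM (40.3 to 63.2) in the mutant and 85.7 CPM (56.9 to 124) in the control, and 0 Ihh UMIs in either library. It held 39.8% of the Shh UMIs of the mutant epithelium. Most control cells of the compartment lay in AT1-like cluster 2 (4 mutant and 508 control cells), with Shh at 142 CPM in the control. Over the AT1-like clusters alone Shh had 50.6 CPM in the mutant and 137 CPM in the control, a ratio of 0.368 (0.288 to 0.467). The difference was thus smaller there, and within cluster 10 the ratio was 0.593 (0.381 to 0.948). In AT1-like cells the AT1 marker list summed to 15802 CPM in the mutant and 33027 CPM in the control. The AT2 marker list summed to 27426 CPM in the mutant and 9918 CPM in the control. Their part in the Shh ratio was not tested. Of all genes measured in AT1-like cells, 7.86% were lower in the mutant by at least 2-fold, and of the 3 hedgehog genes measured there only Shh was.

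The other mutant cells of the compartment lay in 6 clusters that hold mutant cells alone, so cluster and library cannot be told apart there. Both ligand genes were detected in each. Ihh was highest in cluster 6, at 94 CPM (86.1 to 103, 515 UMIs in 353 cells). That cluster is gastric or intestinal epithelium-like and is led by Ttr and Apoa1, which encode plasma transport proteins, and it also expresses Tff2, a trefoil peptide of the stomach. Cluster 6 alone held 43.8% of the Ihh UMIs of the mutant epithelium. Cluster 3, led by Anxa10 and Psca, had 43.2 CPM (38.5 to 48.2), and the cycling cluster 9 had 32.7 CPM (27.4 to 38.7). Clusters 5 and 7 followed at 20.9 CPM (16.7 to 25.9) and 19.0 CPM (15.1 to 23.6), which do not differ beyond their intervals.

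Ihh was lowest of the 6 in cluster 4, at 11 CPM (8.08 to 14.5). Cluster 4 is led by Kcne2 and Lmcd1, a potassium channel subunit and a transcription cofactor. It had the highest level of Ager, an AT1 marker, among the 6, at 4548 CPM, and also the highest Shh among them, at 9.36 CPM (6.72 to 12.7). In the other 5 Shh lay between 0.415 and 3.48 CPM and Ager between 16.3 and 367 CPM. The cluster with the most Ager among the 6 thus had the most Shh and the least Ihh, and the cluster with the least Ager had the most Ihh, while the other 4 kept no such order. Nkx2-1 stood at 187 CPM in the mutant cells of cluster 10, at 15.1 CPM in cluster 4 and at 2.08 to 3.32 CPM in the other 5.

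**Figure D2:**
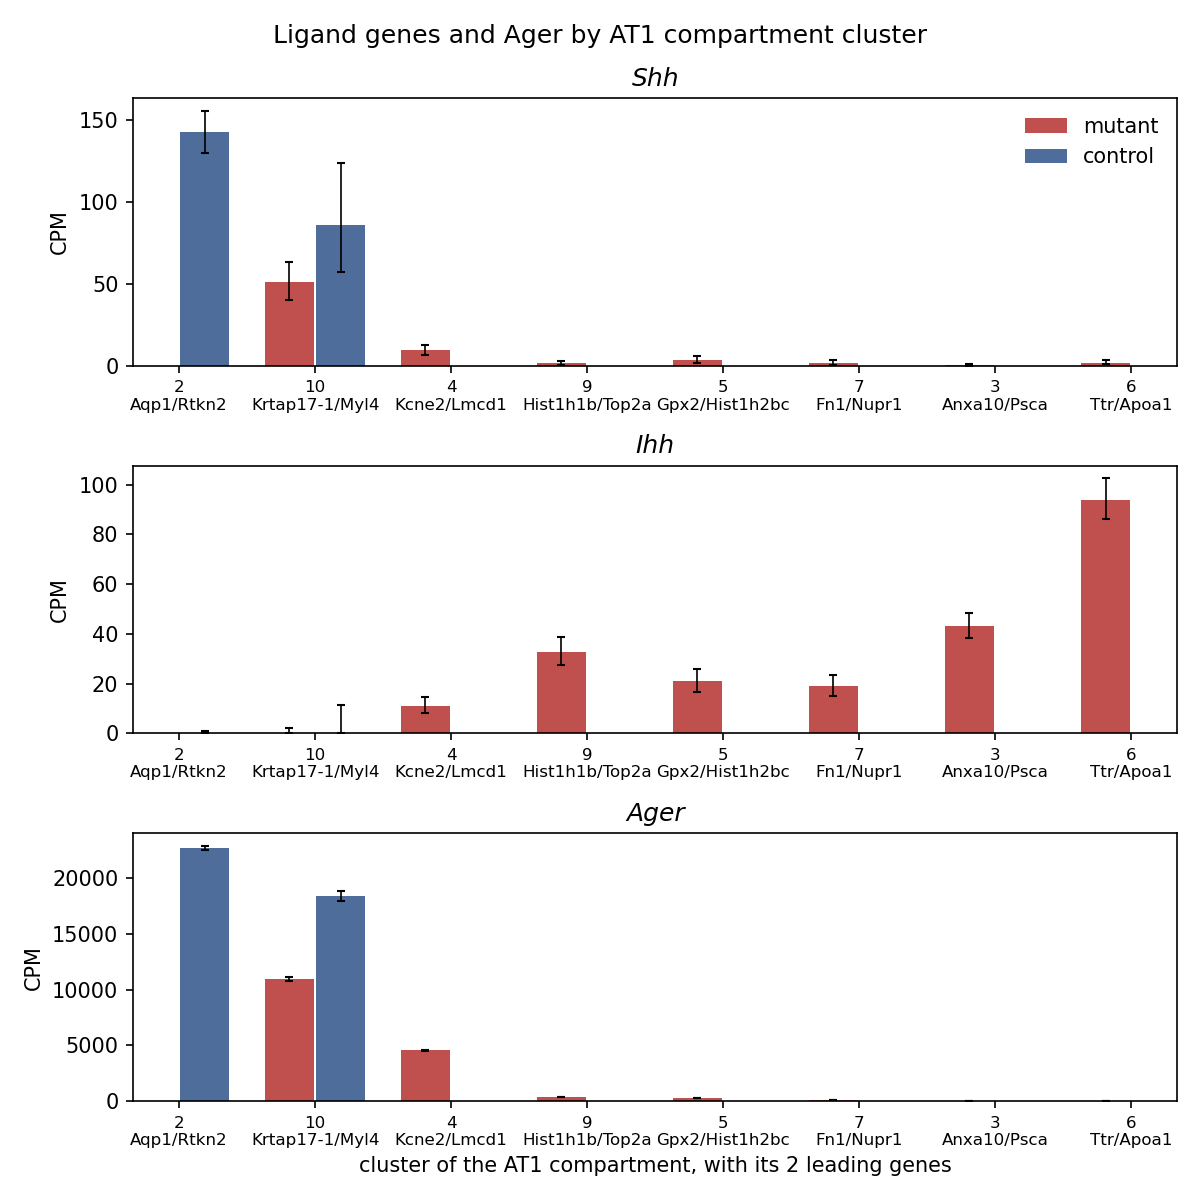
Shh, Ihh and Ager in CPM by cluster of the AT1 compartment (x axis, each with its 2 leading genes), mutant left of control, with exact 95% Poisson intervals; a library with under 20 cells in a cluster is not drawn. Shh and Ager are high in clusters 2 and 10, and Ihh is highest in cluster 6, at 94 CPM.

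Detection was also compared within thinned single cells. Of the 24 mutant compartment cells with a Shh UMI, 20 (83.3%) had an Ager UMI, against 29.9% of the others. In the AT1-like clusters, named from markers that include Ager, lay 12 of these 24 cells. There 97.8% of thinned mutant cells had an Ager UMI, so the comparison in part repeats the clusters. Sprr1a, a squamous differentiation gene, was found in 8 of the 24 cells (33.3%), against 61.4% of the others. Of the 106 cells with an Ihh UMI, 48 (45.3%) had a Tff2 UMI, against 23.5% of the others. Tff2 is a leading gene of cluster 6 and is among the markers that named it. That cluster held 43.8% of the Ihh UMIs of the mutant epithelium, so this comparison too in part repeats the clusters. Ihh was found in 1 of the 24 cells with a Shh UMI (4.17%), against 4.75% of the others. At such a share 24 cells are too few to tell whether the 2 ligand genes are separated between cells. Thinned counts detect a gene in few cells, so these shares are low for every gene and depend on the level.

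Reads of Shh have 2 partners on the other strand that are also in the matrices, Gm26894 and 9530036O11Rik, and whether the counting used strand is not given in the sources used here. Gm26894, which overlaps the start of Shh, had 3.64 CPM in the mutant and 25.6 CPM in the control compartment. 9530036O11Rik had 5.61 CPM in the mutant and 31.7 CPM in the control. Both were lower in the mutant compartment, as Shh was. In AT2-like cells Gm26894 had 12.6 CPM in the mutant and 13 CPM in the control. If the counting did not use strand, reads of these genes and of Shh could not be told apart where the genes overlap. Ihh overlaps no annotated gene. Gli1 overlaps the end of Arhgap9 on the other strand, a gene of immune cells that had 1.19 CPM in mutant and 2.61 CPM in control mesenchymal cells.

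The receptor, transducer and Gli genes of the compartment differed less than the ligand genes. Ptch1 had 332 UMIs (10.7 CPM, 9.58 to 11.9) in the mutant and 140 UMIs (37.3 CPM, 31.4 to 44.0) in the control compartment, a ratio of 0.287 (0.235 to 0.352). In AT1-like cells alone it had 23.1 CPM in the mutant and 37.3 CPM in the control, a ratio of 0.619 (0.419 to 0.895). The mutant compartment level lay near that of endothelial cells of the same library, 13.8 CPM, and above that of its immune cells, 3.93 CPM on 4 UMIs. Across the 6 clusters without control cells Ptch1 had 7.85 to 11.7 CPM.

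Smo was higher in the mutant compartment, at 1084 UMIs (34.9 CPM, 32.9 to 37.1), against 92 UMIs (24.5 CPM, 19.8 to 30.1) in the control, a ratio of 1.42 (1.15 to 1.78). In the 6 clusters without control cells Smo had 29.5 to 44.8 CPM. In AT1-like cells alone Smo was not higher, at 20.6 CPM in the mutant and 24.5 CPM in the control, a ratio of 0.840 (0.547 to 1.26). Gli3 had 60 UMIs (1.93 CPM) in the mutant and 5 UMIs (1.33 CPM) in the control, a ratio of 1.45 (0.588 to 4.63). Gli1 and Gli2 had 0 UMIs in both compartments, which allows up to 0.0967 CPM in the mutant and 0.80 CPM in the control. Hhip had 4 UMIs in the mutant and 1 UMI in the control.

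Of the 5 hedgehog genes measured in the compartment, 1 (Ihh) was higher and 2 (Shh and Ptch1) were lower in the mutant by at least 2-fold. Of all 12784 genes measured there, 21.8% were higher and 12.3% lower by that size, so the count among 5 genes is to be read against a background in which many genes differed. The median log2 ratio was 0.51 over the 5 genes, with Ihh at its bound, and 0.15 over all genes. Beside these values, the cycling marker list summed to 538 CPM in the mutant and 12.3 CPM in the control compartment. The AT1 marker list summed to 2417 CPM in the mutant and 33027 CPM in the control. The gastric or intestinal list summed to 1422 CPM in the mutant and 1.60 CPM in the control, where 7 of its 8 genes were at 0. Their part in the hedgehog values was not tested.

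In AT2-like cells 4 of the 8 genes were measured. Ptch1 had 9 UMIs (5.38 CPM) in the mutant and 121 UMIs (12.5 CPM) in the control, a ratio of 0.432 (0.193 to 0.847), and within cluster 8 the ratio was 0.630 (0.181 to 2.27). Ptch1 was the only one of the 4 past 2-fold, and of all genes 7.44% were higher and 4.85% lower by that size. Smo had 15.6 CPM in the mutant and 12.9 CPM in the control. Gli3 had 3.59 CPM in the mutant and 6.29 CPM in the control, with a ratio interval of 0.202 to 1.32.

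Mesenchymal cells, which receive the signal, held nearly all Hhip, Gli1 and Gli2. Of the Hhip UMIs, 98.6% lay there in each library, as did 100% of the Gli2 UMIs. In contrast to the ligands, none of the 6 genes measured in the 1000 mutant and 1071 control mesenchymal cells differed by 2-fold. Of all 12050 genes measured there, 6.85% were higher and 2.41% lower in the mutant by that size, so a count of 0 among 6 lies close to the background.

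Ptch1 had 545 UMIs (92.4 CPM, 84.8 to 101) in mutant and 546 UMIs (79.3 CPM, 72.8 to 86.2) in control mesenchymal cells, a ratio of 1.17 (1.03 to 1.32). Gli1 had 106 UMIs (18.0 CPM, 14.7 to 21.7) in the mutant and 121 UMIs (17.6 CPM, 14.6 to 21) in the control, a ratio of 1.02 (0.781 to 1.34). Hhip had 506 UMIs (85.8 CPM) in the mutant and 582 UMIs (84.5 CPM) in the control, a ratio of 1.02 (0.900 to 1.15). For these 3 target genes the intervals lay inside 2-fold in either direction.

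Smo had 68.7 CPM in mutant and 54.9 CPM in control mesenchymal cells, a ratio of 1.25. Gli2 had 58 UMIs (9.83 CPM) in the mutant and 46 UMIs (6.68 CPM) in the control, a ratio of 1.47 (0.983 to 2.22). Gli3 had 22.4 CPM in the mutant and 20.04 CPM in the control, a ratio of 1.12. The median log2 ratio of the 6 genes was 0.19, against 0.04 over all genes. After thinning, 13% of mutant and 11.3% of control mesenchymal cells had a Ptch1 UMI, against 0 of 163 mutant immune cells, which allows up to 1.84%, and 1.27% of control immune cells. Median depths were 5484 UMIs in mutant and 6024 UMIs in control mesenchymal cells, and 5308 UMIs in mutant and 4721 UMIs in control immune cells. Averaged over the mesenchymal classes with equal weight, the log2 ratio was -0.072 for Ptch1, -0.26 for Hhip and -0.46 for Gli1, against 0.22, 0.02 and 0.03 over all mesenchymal cells. The direction for these 3 genes thus depends on how the classes are weighted, and for Gli1 it gives full weight to classes with 1 UMI in a library.

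The mesenchymal classes differed in level. Alveolar myofibroblast-like cells, the contractile Pdgfra-expressing cells of septation, had Ptch1 at 97.1 CPM (86.6 to 109) in the mutant and 75.1 CPM (67.4 to 83.4) in the control, a ratio of 1.29 (1.11 to 1.51). Ptch1 was higher in the mutant in each of their 6 clusters, which ranged from 70.9 to 113 CPM in the mutant and from 50.4 to 101 CPM in the control. Only in cluster 4 did the interval of the Ptch1 ratio lie apart from 1, at 1.20 to 3.15, and the clusters share the same 2 libraries. Control cells lay mostly in clusters 2 (47 mutant and 214 control cells) and 1 (105 and 187), and mutant cells mostly in clusters 5, 6, 4 and 1. Gli1 had 23.3 CPM in mutant and 19.3 CPM in control myofibroblast-like cells, a ratio of 1.20 (0.872 to 1.66). It was higher in the mutant in 3 of these 6 clusters, of which cluster 1 had a ratio of 1.00, and lower in 3. In cluster 6 Gli1 had 20 UMIs (32.4 CPM) in the mutant and 2 UMIs (6.45 CPM) in the control, a ratio of 5.02 (1.22 to 44.3), and this was the only one of the 6 ratios whose interval lay apart from 1.

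Alveolar fibroblast-like cells, the lipid-bearing Tcf21-lineage fibroblasts, had Ptch1 at 120 CPM in the mutant and 119 CPM in the control. Hhip was lower there in the mutant, at 93.5 CPM (77.2 to 112), against 141 CPM (115 to 172) in the control, a ratio of 0.662 (0.503 to 0.873). Gli2 had 26 UMIs (21.1 CPM) in the mutant and 7 UMIs (9.70 CPM) in the control, a ratio of 2.18 (0.922 to 5.95). It was the only one of the 6 genes measured there past 2-fold, against 6.76% of all genes higher by that size.

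Adventitial fibroblast-like cells, which surround vessels and airways, had the highest control levels of Ptch1 and Gli1 among the 5 classes, on 45 mutant and 48 control cells. Ptch1 had 139 CPM in the mutant and 174 CPM in the control, and Gli1 had 9 UMIs (32.1 CPM) in the mutant and 17 UMIs (52.8 CPM) in the control, with ratio intervals of 0.517 to 1.23 and 0.239 to 1.44. Pericyte-like cells, which wrap capillaries, had Ptch1 at 45.3 CPM in the mutant and 48.0 CPM in the control but no Hhip UMI in either library, and 1 Gli1 UMI in each.

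Smooth muscle-like cells had 4 measured genes. Smo was higher in the mutant, at 25 UMIs (42.5 CPM), against 7 UMIs (14.4 CPM) in the control, a ratio of 2.96 (1.24 to 8.09), where 8.69% of all genes were higher by 2-fold. Hhip was lower in the mutant, at 21 UMIs (35.7 CPM), against 35 UMIs (71.9 CPM) in the control, a ratio of 0.497 (0.275 to 0.877), where 3.88% of all genes were lower by 2-fold. The class has 2 clusters that differ in Hhip. Cluster 11, led by the contractile genes Tnnt2 and Actc1, had 156 CPM in the mutant and 175 CPM in the control (20 cells each), a ratio of 0.889. Cluster 7, led by Grp and Sost, had 0 UMIs in 81 mutant cells and 1 UMI in 49 control cells. The clusters make up different shares of the class in each library.

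**Figure D3:**
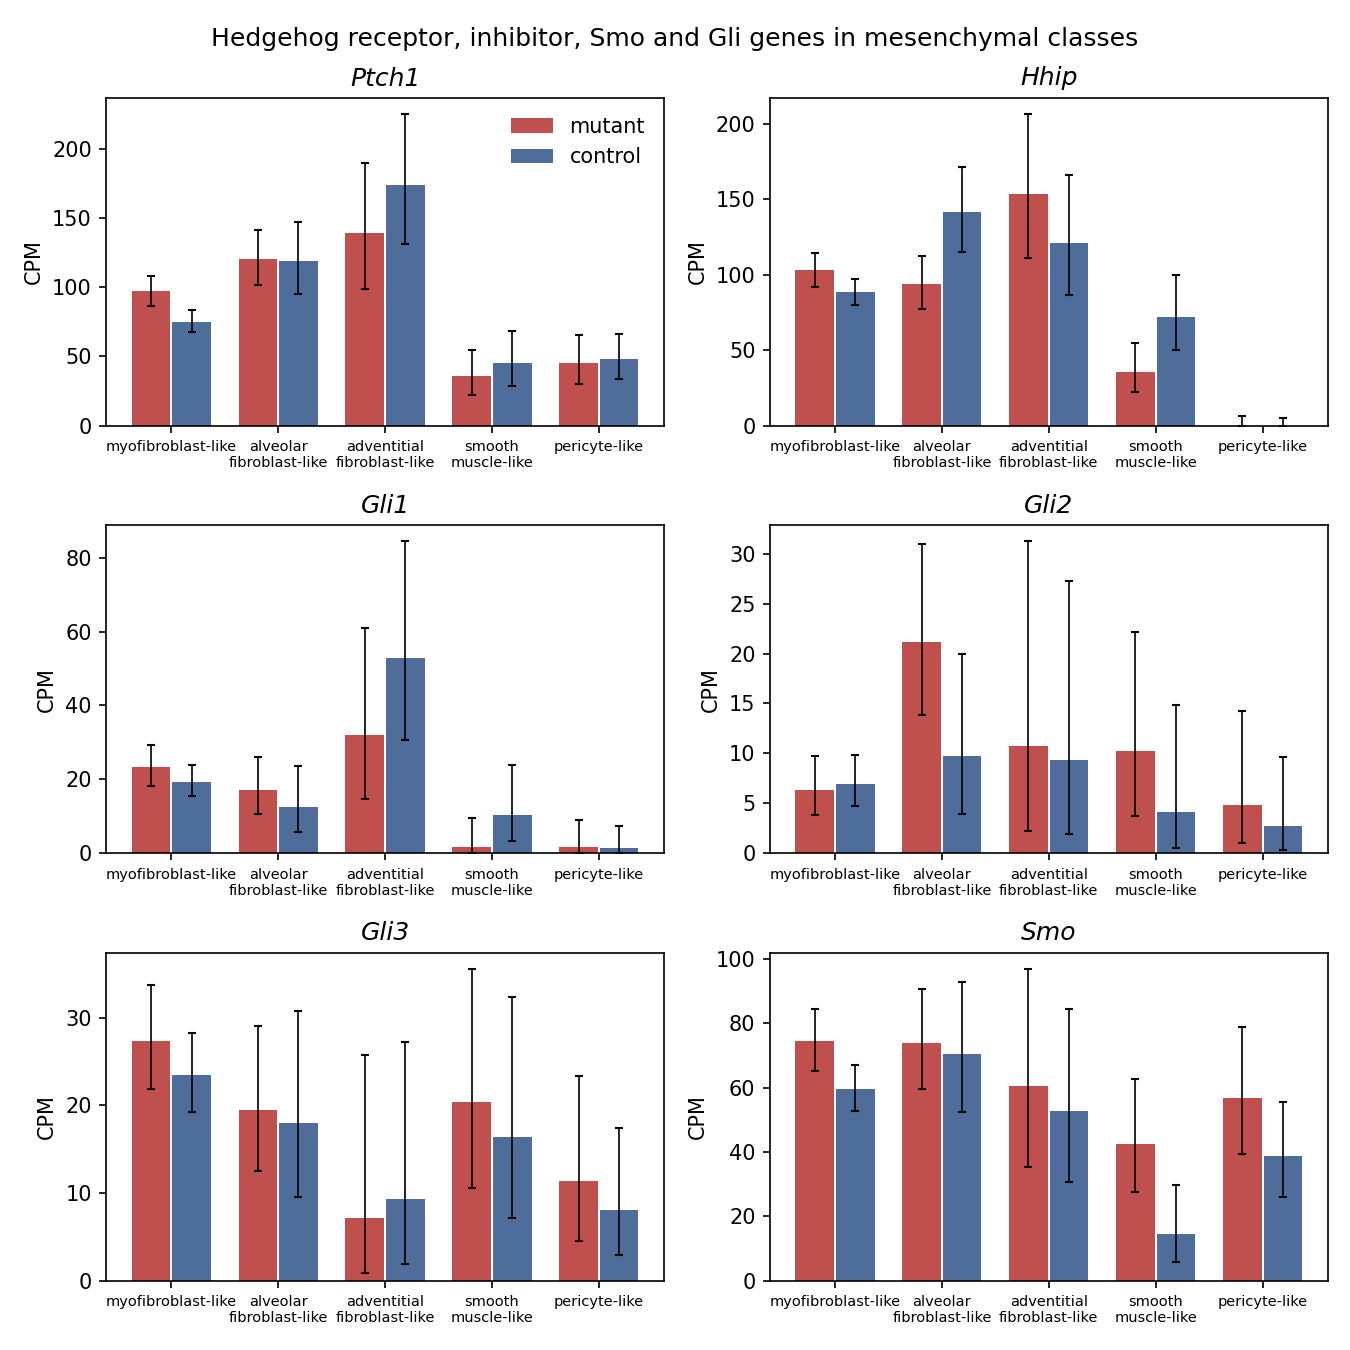
Levels in CPM of the receptor, inhibitor, Gli and transducer genes in 5 mesenchymal classes, mutant left of control, with exact 95% Poisson intervals. Ptch1 is lowest in smooth muscle-like and pericyte-like cells and Hhip is at 0 UMIs in pericyte-like cells of both libraries; most mutant and control intervals overlap.

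Hhip was concentrated in 1 group of myofibroblast-like cells. Cluster 4, led by Enpp2, the tendon factor Scx and the BMP inhibitor Grem1, had Hhip at 437 CPM in its 108 mutant cells and 515 CPM in its 94 control cells, a ratio of 0.848 (0.713 to 1.01). In the other 5 myofibroblast-like clusters Hhip lay between 8.71 and 114 CPM in the mutant and between 8.44 and 62.6 CPM in the control. Cluster 2 had 114 CPM in the mutant and 62.6 CPM in the control, a ratio of 1.82 (1.15 to 2.83). Ptch1 did not follow this order, since cluster 4 had 97.1 CPM in the mutant and 50.4 CPM in the control, a ratio of 1.92 (1.20 to 3.15).

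**Figure D4:**
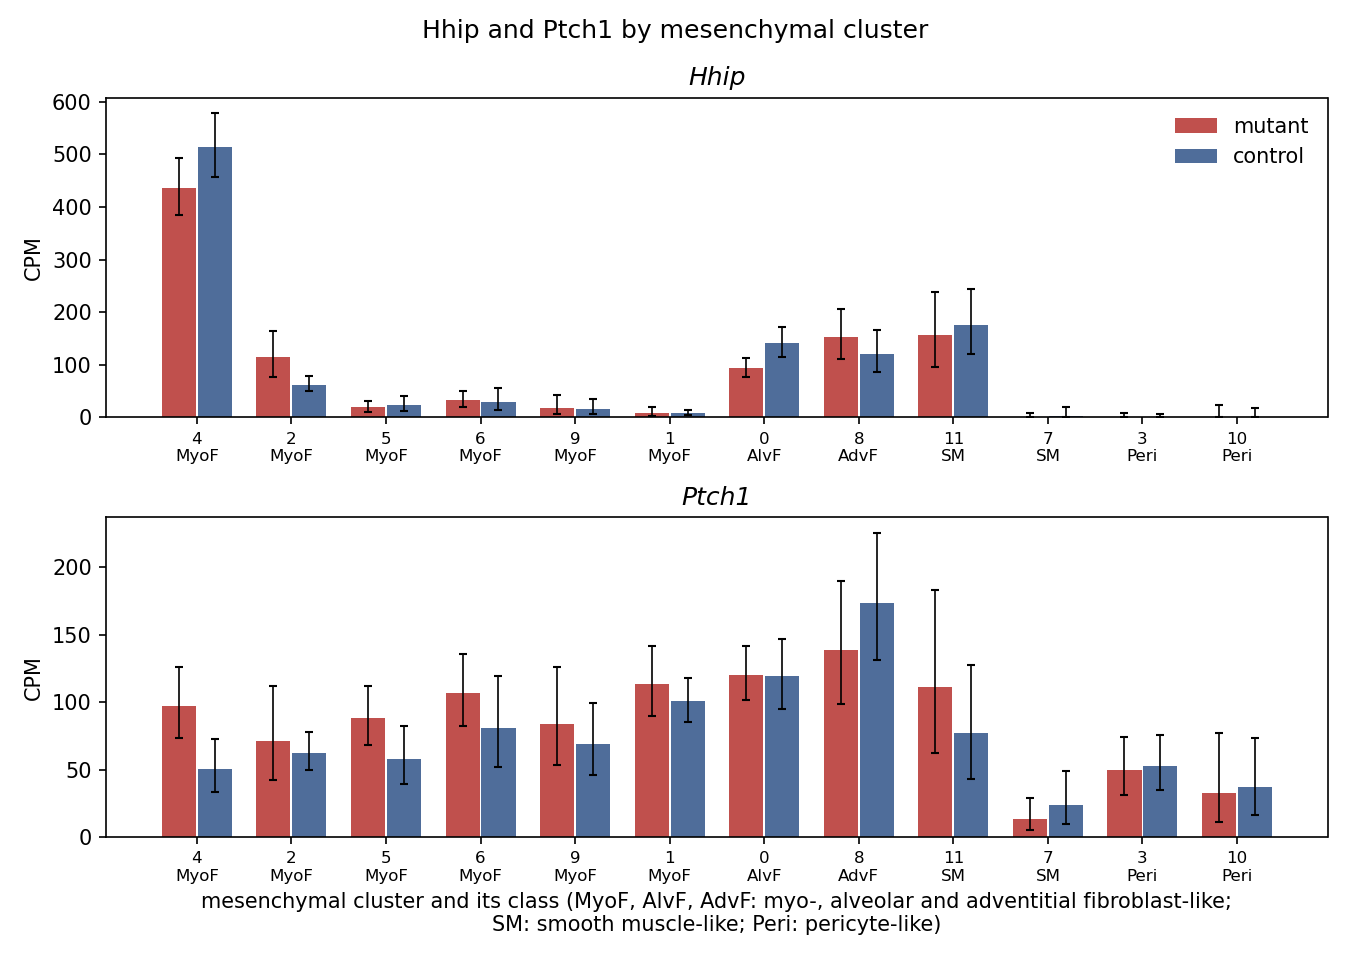
Hhip and Ptch1 in CPM by mesenchymal cluster, mutant left of control, with exact 95% Poisson intervals. Hhip peaks in cluster 4 in both libraries, at 437 CPM in the mutant and 515 CPM in the control, while Ptch1 is spread over all fibroblast-like clusters.

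Markers of other types in mesenchymal cells differed between the libraries. The AT2 marker list summed to 181 CPM in mutant and 1897 CPM in control mesenchymal cells, and the epithelial list to 79.7 CPM in the mutant and 26.4 CPM in the control. The myofibroblast list summed to 3293 CPM in the mutant and 5638 CPM in the control, with none of its 8 genes at 0. Their part in the hedgehog values was not tested. Shh and Ihh themselves had at most 4 UMIs in the mesenchymal cells of a library.

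Endothelial cells had Smo at 31.5 CPM in the mutant and 29.1 CPM in the control and Ptch1 at 13.8 CPM in the mutant and 12.3 CPM in the control. None of the 3 genes measured was past 2-fold, against 9.27% of all genes in either direction. Within the lineage, arterial-like cells (41 mutant and 63 control cells) had Smo at 6 UMIs (24.5 CPM) in the mutant and 19 UMIs (65.3 CPM) in the control, a ratio of 0.376 (0.123 to 0.978). In that class 4.19% of all genes were lower by 2-fold. Smo had 27.6 CPM in mutant and 15.9 CPM in control Car4-high capillary-like cells, with a ratio interval of 0.643 to 5.13. Dhh, the remaining mammalian hedgehog ligand gene, was measured in endothelial cells and not in mesenchymal cells or the AT1 compartment. Over all endothelial cells it had 22.7 CPM in the mutant and 17.5 CPM in the control, a ratio of 1.30 (0.881 to 1.91). In endothelial cells outside the named classes, 27 other listed genes of the pathway were measured. Of these 2, Dhh and Arl13b, were higher in the mutant by at least 2-fold and 0 were lower. The share of all genes past 2-fold in that class is not given here, so the Dhh value cannot be read against it. Immune cells had 0 to 9 UMIs of each of the 8 genes in each library.

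**Figure D5:**
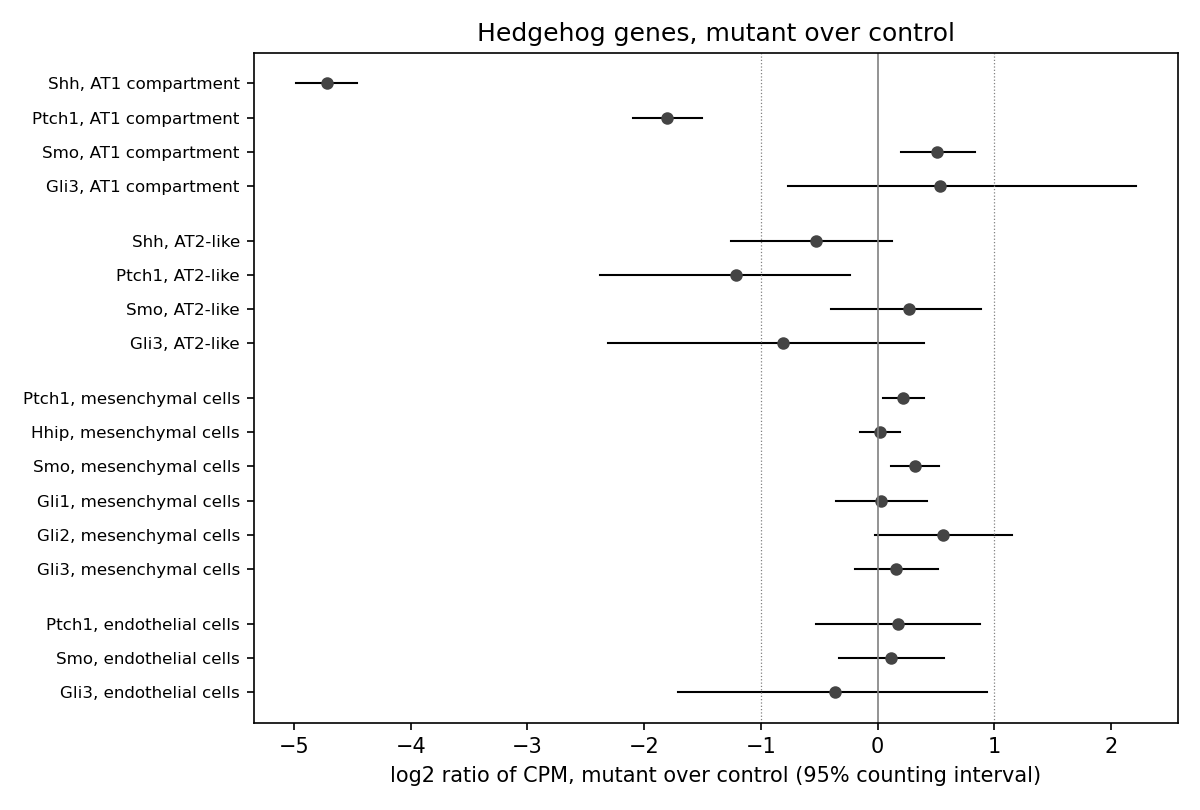
Log2 ratio of CPM, mutant over control, of the measured hedgehog genes in 4 cell groups, with exact 95% counting intervals; dotted lines mark 2-fold. Shh in the AT1 compartment stands at -4.72 and the 6 genes of mesenchymal cells lie within 2-fold; Ihh in the compartment is not drawn because the control had 0 UMIs.

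Of 50 other listed genes of the pathway, 41 were measured in the AT1 compartment, where 11 were higher and 8 lower in the mutant by at least 2-fold. Of all genes measured there, 21.8% were higher and 12.3% lower by that size. The median log2 ratio of the 41 was 0.09, against 0.15 over all genes. Among genes of ligand processing and release, Hhat, which adds palmitate to the ligand, had 3.42 CPM in the mutant and 1.07 CPM in the control. Scube2, which helps release it, had 0.193 CPM in the mutant and 8.00 CPM in the control. Disp1, the release transporter, had 4.77 CPM in the mutant and 3.20 CPM in the control.

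Among co-receptors and surface proteins, the glypican gene Gpc3 had 24.6 CPM in the mutant and 118 CPM in the control, a ratio of 0.208. Lrp2, an endocytic receptor, had 5.42 CPM in the mutant and 1.07 CPM in the control, and the co-receptor Cdon had 9.96 CPM in the mutant and 9.86 CPM in the control. Among transducing genes, Gpr161, a ciliary receptor that restrains the pathway, had 60 UMIs in the mutant and 1 UMI in the control, a ratio of 7.25 (1.25 to 291). Stk36, a relative of the fly kinase Fused, had 2.55 CPM in the mutant and 31.5 CPM in the control. The 3 most abundant of these were Csnk1a1, Prkar1a and Spop, with ratios of 1.89, 0.662 and 0.485. Of the 8 cilium genes, 2 were higher, with Ift88 at 11 CPM in the mutant and 4.27 CPM in the control, and 0 were lower, against the same 21.8% and 12.3% of all genes.

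The listed genes known to respond to hedgehog went both ways in the compartment, 3 higher and 3 lower of 7 measured, against 21.8% of all genes higher and 12.3% lower. Ccnd1, which encodes cyclin D1, had 285 CPM in the mutant and 11.7 CPM in the control, a ratio of 24.3 (18.1 to 33.5). Bmp4 had 17.6 CPM in the mutant and 120 CPM in the control, and Snai1 had 0.548 CPM in the mutant and 20.3 CPM in the control. Mycn had 19.7 CPM in the mutant and 20.8 CPM in the control. The list says nothing of whether hedgehog acts on these genes in this epithelium.

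In mesenchymal cells 46 of the 50 were measured, of which 3 were higher and 1 lower in the mutant. These counts lie near the background of 6.85% of all genes higher and 2.41% lower, and the median log2 ratio was 0.11 against 0.04 over all genes. Scube1 had 16.8 CPM in the mutant and 7.41 CPM in the control, a ratio of 2.27. Scube2 had 50.5 CPM in the mutant and 19.6 CPM in the control, a ratio of 2.58 (2.10 to 3.18), opposite in direction to its ratio in the AT1 compartment. Fst, the activin inhibitor follistatin, had 32.2 CPM in the mutant and 13.4 CPM in the control, a ratio of 2.41. Bmp4 was the lower one, at 57.1 CPM in the mutant and 128 CPM in the control, a ratio of 0.448 (0.394 to 0.508). The mesenchymal factor gene Foxf1 had 141 CPM in the mutant and 191 CPM in the control, a ratio of 0.741 (0.679 to 0.809). Foxf2 had 155 CPM in the mutant and 183 CPM in the control.

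The co-receptor genes Gpc3, Gas1 and Boc had mesenchymal ratios of 1.44, 1.31 and 1.41, with none past 2-fold. The 18 transducing genes lay between a ratio of 0.621 for Btrc and 1.59 for Cul3, which both encode parts of ubiquitin ligases. The 8 cilium genes lay between 0.660 for Tctn1 and 1.64 for Ift88.

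Across 35 units of a cell class in a library with at least 20 cells, genes most like each hedgehog gene were named by the Pearson correlation of log2(CPM + 1). The units share libraries and depth, so these are descriptions. Shh was most like Slc6a14 (r = 0.93), H2-Q2 (0.92) and Fam187b (0.91), and Ihh was like Degs2 (0.85) and Rnf128 (0.83). Ptch1 was most like Ormdl3 (0.90), Twsg1 (0.88) and Rab34 (0.86). Hhip was most like Ssc5d (0.91), Fgf7 (0.89) and Wscd2 (0.88), and Smo was most like Grb10 (0.94), Dlg5 (0.93) and Phldb2 (0.92). Gli1 was most like Gng8 (0.94), Tnfaip6 (0.93) and Cdh11 (0.90), Gli2 was like Fgf2 (0.99) and Adamts15 (0.97), and Gli3 was most like Ak1 (0.86), Serpine2 (0.85) and Tyro3 (0.84). Among the hedgehog genes themselves Hhip and Gli1 (0.89) and Gli1 and Gli2 (0.87) were closest.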

How the data were processed

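Single cells of postnatal day 10 lungs were profiled with the 10x 3' kit, per the labels' protocols. The authors deposited raw UMI counts per gene and barcode. The submitters' processing notes list Cell Ranger, Seurat and mm10 without versions. Cells needed 500 or more detected genes and a mitochondrial share under 10%. Doublets were taken as the cells with the highest simulated-doublet scores, at the expected 0.8% per 1000 cells, and 156 mutant and 137 control cells were removed. Mixed clusters took out 108 mutant and 80 control cells. Clustering used scanpy 1.11.5 (2000 variable genes without the hedgehog and listed pathway genes, 30 components, 20 neighbours, Leiden resolution 1), first over all cells and then within each lineage, where genes of non-epithelial lineages were scaled within a library. Classes were named from listed markers. The doublet rule, this scaling and the thresholds for naming classes were set after seeing the data. Counts were summed per class and library and given as CPM.

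Other pathway genes were named by role, as the 3 with the most UMIs and those with the largest and smallest ratios, and where a count was 5 or fewer. The hedgehog genes, lists, naming rule and alternatives were chosen with earlier results of these data known. Positions are from GENCODE M21 and sequence from RefSeq. Ratios and intervals were tested on simulated Poisson counts, which hold no variation between cells, animals or libraries. No source used here says how many animals gave the cells. Some genes that the rules would name are not reported here.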

Additional observations from a re-analysis of the deposited data

How the results depend on the processing

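Of 60 alternative values for the main results, 50 stayed within the counting interval or, for counts of genes, within 1.5 times the main count. The others are given here, and the cause of each move was not tested. The log2 ratio of Shh in the AT1 compartment, -4.72, was -4.32 as a mean over cells, -4.17 after thinning, -1.44 for the AT1-like clusters and -3.02 for the whole epithelium. The bound for Ihh, 5.56, was 3.25 after thinning, which leaves fewer counts by construction, and Ihh gave no value for a mean over cells or for the AT1-like clusters. The interval for Ihh has no upper limit, so any higher value counted as within it. The value of 7.05 for the whole epithelium was counted in that way. In mesenchymal cells the log2 ratio of Ptch1, 0.22, turned to -0.072 as a mean over classes, that of Gli1, 0.03, was -0.46 and that of Hhip, 0.02, was -0.26. Hhip was 0.22 in myofibroblast-like cells alone, an alternative chosen after seeing the data, as was clustering without scaling within a library. Gli1 and Hhip lay close to 0 and also changed sign elsewhere, Gli1 to -0.053 under 5% mitochondrial counts and Hhip to -0.15 after thinning. With a minimum of 5 UMIs in place of 20, 1 hedgehog gene, Shh with 1 mutant and 4 control UMIs, passed 2-fold in mesenchymal cells, against 0 before, and 4 passed in the AT1 compartment, against 3. By Spearman's rank correlation 0 of the 3 most alike genes were shared for Shh, Ihh, Smo and Gli2, 1 for Ptch1 and Gli1, and 2 for Hhip and Gli3. Leaving the 50 most abundant genes out of the totals moved the median log2 ratio of all genes in AT2-like cells to 0.04, against 0.18, and in the AT1 compartment to 0.16, against 0.15. No replicate could be left out with 1 library per group. No paired analysis was possible because each group has 1 library. Depth limits Gli1 and Gli2, which had at most 89 UMIs in any named class of a library.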
